A study of Mus musculus with 118 samples.

Results

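The regions described here are the peaks of mouse chromosome 11 in 3 peak lists from embryonic stem cells (ESCs), for RING1B, SUZ12 and PCGF2. They are all peaks that the lists place on this chromosome, 2640 of 29761 peaks. Of these, 1703 of 18643 were RING1B peaks, 628 of 7438 were SUZ12 peaks and 309 of 3680 were PCGF2 peaks. Chromosome 11 was selected on the width of its RING1B peaks without SUZ12, which was the largest of the 19 autosomes, so RING1B widths are given as a description and support nothing. The other measures below were not the values used in that choice, but all come from the same lists. Those that depend on RING1B width are not independent of the choice. They include the sequence covered, the shares of starts, promoters and genes with RING1B, and CpG content over whole peaks.

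The study used calibrated ChIP-seq (cChIP-seq) of 118 samples in 42 groups to follow Polycomb complexes when the catalytic activity of PRC1 is lost. The lists come from cells before tamoxifen, at 0 hr. The PRC1CPM line, clone 41 of strain E14, carries Rosa26::ERT2-Cre with the alleles Ring1b(WT->I53A/D56K)fl/fl and Ring1aI50A/D53K, and 3 untreated samples of it were profiled for each of RING1B, SUZ12 and PCGF2. The PRC1CKO line, clone B9, carries Rosa26::ERT2-Cre with Ring1bfl/fl and Ring1a-/-, and 3 untreated samples of it were profiled for SUZ12. RING1A was therefore mutated or absent in every culture behind the lists, and each line was a single clone. RING1B data of the PRC1CKO line also entered the RING1B list but are not among these samples. Each list is a single set of positions that the authors made from its samples, without peak heights or read counts. There was thus no error between replicates and no test over samples. Chromosome 11 is set instead against the median, the standard deviation (SD) and the range of the other 18 autosomes, which are not replicates. A chromosome that ranks first of 19 holds a place that any chromosome has in 5.26% of random orders, so no p-value is given. All coordinates are on GRCm38, which mm10 corresponds to.

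PRC1 and PRC2 are the main Polycomb repressive complexes. RING1B is the E3 ligase of PRC1 that places ubiquitin on histone H2A, SUZ12 is a core subunit of PRC2, which methylates histone H3 at lysine 27, and PCGF2 marks canonical PRC1, the form that binds this methylation through its CBX subunits. In ESCs these complexes gather at CpG-rich promoters, above all at silent genes of development, and variant forms of PRC1 also occupy CpG islands that lack PRC2.

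To show the DNA behind these peaks, the middle 200 bases of 3 wide peaks and the 250 bases before the start of 3 genes are printed, with CpG dinucleotides in capitals. The middles show wide RING1B peaks without and with SUZ12. The first belongs to the widest RING1B peak without SUZ12, at Srcin1 (chr11:97572108-97572307, plus strand), the second to a wide one between genes (chr11:95542528-95542727, plus strand) and the third to the wide peak at Cbx8 that overlapped both other lists (chr11:119047897-119048096, plus strand).
Srcin1, peak middle: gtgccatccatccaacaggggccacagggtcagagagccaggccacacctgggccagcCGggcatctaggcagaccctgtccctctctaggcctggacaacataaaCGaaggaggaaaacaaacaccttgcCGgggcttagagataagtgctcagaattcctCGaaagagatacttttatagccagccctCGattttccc
between genes, peak middle: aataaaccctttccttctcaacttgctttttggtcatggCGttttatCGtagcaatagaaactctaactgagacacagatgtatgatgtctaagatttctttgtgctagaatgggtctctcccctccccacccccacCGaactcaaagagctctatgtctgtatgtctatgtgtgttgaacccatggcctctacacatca
Cbx8, peak middle: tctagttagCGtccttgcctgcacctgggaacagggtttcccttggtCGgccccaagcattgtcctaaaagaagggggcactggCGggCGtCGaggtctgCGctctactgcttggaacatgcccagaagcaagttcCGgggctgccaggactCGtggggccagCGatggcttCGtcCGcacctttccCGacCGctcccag
These windows held 5, 3 and 13 CpGs. Cbx8 does not stand for the widest peaks with SUZ12 and PCGF2. The middle 200 bases of the 2 wider ones, at the Hoxb genes and at Hoxb13, held 2 CpGs each. In the 1107 chromosome 11 RING1B peaks with neither SUZ12 nor PCGF2, the middle 200 bases held a median of 7 CpGs (interquartile range 4 to 14), so the first and second windows lay below that median. The median was 10 in the 302 peaks with SUZ12 only and 11 in the 291 peaks with both, against 9, 12 and 12 in the same classes on the other autosomes.

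The upstream sequences, taken from RefSeq on GRCm38.p6, show a gene start with all 3 factors (Cbx8, a subunit of canonical PRC1, chr11:119040914-119041163, minus strand), one with RING1B alone (Suz12, chr11:79992856-79993105, plus strand) and one with no peak (Krt14, a keratin of the basal epidermis, chr11:100206031-100206280, minus strand). These genes were picked after their peaks were known.
Cbx8, upstream: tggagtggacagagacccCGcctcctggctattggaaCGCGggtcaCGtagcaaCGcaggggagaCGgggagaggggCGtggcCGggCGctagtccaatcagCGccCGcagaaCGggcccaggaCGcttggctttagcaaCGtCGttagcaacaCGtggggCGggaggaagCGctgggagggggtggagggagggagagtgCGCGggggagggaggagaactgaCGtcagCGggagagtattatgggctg
Suz12, upstream: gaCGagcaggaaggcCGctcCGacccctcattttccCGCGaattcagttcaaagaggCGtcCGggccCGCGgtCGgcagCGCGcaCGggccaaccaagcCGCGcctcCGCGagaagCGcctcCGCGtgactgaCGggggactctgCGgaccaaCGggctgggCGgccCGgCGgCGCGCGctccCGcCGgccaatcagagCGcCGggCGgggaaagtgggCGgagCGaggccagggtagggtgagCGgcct
Krt14, upstream: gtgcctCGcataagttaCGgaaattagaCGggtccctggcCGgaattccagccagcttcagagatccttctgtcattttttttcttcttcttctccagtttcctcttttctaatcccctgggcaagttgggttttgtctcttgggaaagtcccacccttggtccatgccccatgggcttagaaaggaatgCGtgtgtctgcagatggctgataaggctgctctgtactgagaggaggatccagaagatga
They held 22, 37 and 5 CpGs. Of the 2289 chromosome 11 starts with such a sequence, the 250 bases overlapped RING1B and SUZ12 in 369, RING1B without SUZ12 in 812 and no RING1B peak in 1108. The median number of CpGs was 17, 17 and 3 in these groups, the same medians as on the other autosomes. Upstream CpG number was thus lower at starts without RING1B, and among starts with RING1B its median was equal with and without SUZ12. The share of starts with RING1B and no SUZ12 was 35.5% on chromosome 11 and 24.5% on the other autosomes, whereas the share with both was 16.1% and 15.2%.

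Chromosome 11 carried more peaks for its length than any other autosome in each of the 3 lists. It holds 4.96% of the sequenced autosomal bases but 9.27% of the autosomal RING1B peaks, 8.60% of the SUZ12 peaks and 8.61% of the PCGF2 peaks. There were 14.3 RING1B peaks per Mb of sequenced bases, against a median of 7.71 (SD 1.58) on the other autosomes, whose highest value was 9.96 on chromosome 17. SUZ12 peaks numbered 5.29 per Mb, against a median of 3.06 (SD 0.568) and a highest value of 3.99 on chromosome 19. PCGF2 peaks numbered 2.60 per Mb, against a median of 1.44 (SD 0.293) and a highest value of 2.15, again on chromosome 19. Chromosome 11 lay beyond the range of the others in all 3 lists, at 1.86, 1.73 and 1.81 times their median. The lists hold no read depth, so the number of copies of chromosome 11 in these clones was not measured here, and this limit bears on every number, coverage and width given for it. RING1B peaks covered 3.86% of its sequence (median of the others 1.78%, highest 2.41%), SUZ12 peaks 2.18% (1.14%, 1.63%) and PCGF2 peaks 0.996% (0.558%, 0.842%).

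Chromosome 11 is also rich in genes and in G and C, so peaks were next counted against promoters. A promoter window was a transcription start site (TSS) of a curated RefSeq transcript plus or minus 2500 bp, with overlapping windows merged. Chromosome 11 has 1744 such windows, or 14.7 per Mb, second to the 14.9 of chromosome 7, and its GC content of 43.8% is the highest of the autosomes. It held 97.6 RING1B peaks per 100 promoter windows, still the highest value (median of the others 80.3, SD 8.14, range 62.1 on chromosome 7 to 89.6 on chromosome 5). SUZ12 fell within the range of the others, with 36.0 peaks per 100 windows and rank 4 (median 31.4, highest 38.9 on chromosome 12). PCGF2 did so too, with 17.7 and rank 6 (median 16.1, highest 22.2 on chromosome 18). Per promoter, then, chromosome 11 stood first for RING1B and among the others for SUZ12 and PCGF2.

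A straight line of peaks per Mb on promoter windows per Mb, fitted to the other 18 autosomes, gave 10.6 RING1B peaks per Mb at the promoter density of chromosome 11, which had 3.74 more. The farthest of the other chromosomes lay 1.48 from the line. The SUZ12 excess was 1.29 per Mb (farthest other 0.616) and the PCGF2 excess 0.72 per Mb (farthest other 0.405). These lines and the values per promoter treat density differently, since a line need not pass through 0. Chromosome 7, the closest to chromosome 11 in promoter density, had 9.25 RING1B, 3.47 SUZ12 and 1.57 PCGF2 peaks per Mb. Across the 19 autosomes RING1B peaks per Mb went with promoter windows per Mb (Pearson r = 0.879, Spearman rho = 0.914, n = 19), a description of points that share the same lists and annotation.

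**Figure D1:**
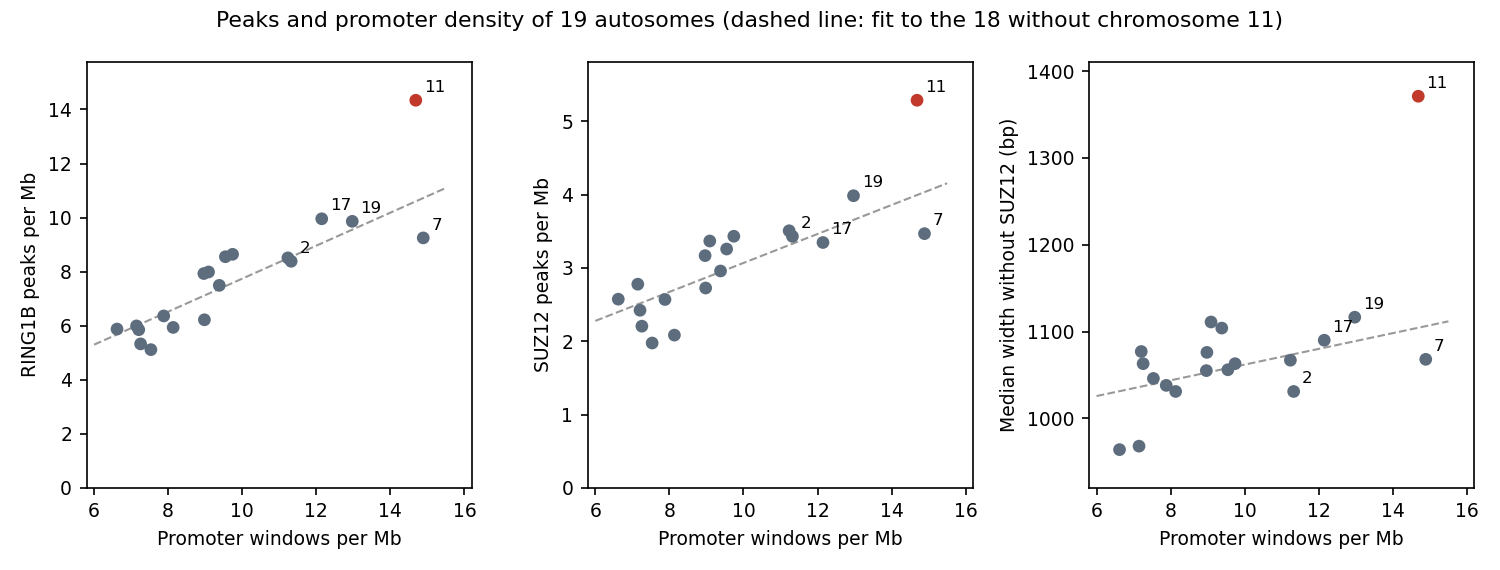
RING1B peaks per Mb (left), SUZ12 peaks per Mb (middle) and the median width in bp of RING1B peaks without SUZ12 (right, axis not from 0) against promoter windows per Mb, 1 point for each of 19 autosomes, chromosome 11 in red. The dashed line was fitted to the other 18. Chromosome 11 lies 3.74 RING1B peaks per Mb, 1.29 SUZ12 peaks per Mb and 267 bp above the lines, and chromosome 7 has a similar promoter density and lies below them.

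The RING1B peaks of chromosome 11 were both at and away from promoters. It had 60.1 peaks at promoters per 100 promoter windows (median of the others 51.6, highest 57.8) and 5.52 peaks outside promoters per Mb (median 2.61, highest 3.79 on chromosome 17). Of its promoter windows, 59.1% held RING1B (median 50.0%, highest 56.2%), 26.9% held SUZ12 (rank 5, median 24.6%) and 14.4% held PCGF2 (rank 6, median 13.3%). CpG-rich TSSs were taken as those whose surrounding 1000 bp had a CpG observed/expected of at least 0.6 and a GC content of at least 50%. Chromosome 11 has 1129 of these, and RING1B was present at 1069, a share of 94.7% (median 89.7%, range 85.6% on chromosome 8 to 92.7% on chromosome 9). SUZ12 was present at 39.8% of them, which ranked 13, and PCGF2 at 22.1%, also rank 13. At the 1231 other TSSs, RING1B was present at 36.1% (rank 2, median 27.8%). RING1B thus reached a larger share of CpG-rich starts on chromosome 11 than on each other autosome, and SUZ12 and PCGF2 did not. Wider peaks can meet more windows, so these RING1B shares are not independent of the choice of the chromosome.

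Peaks on chromosome 11 lay closer together. The median gap from a RING1B peak to the next was 21121 bp, the shortest of the autosomes, although chromosome 17 came near with 23680 bp (median of the others 41728 bp). The median gap was 72079 bp between SUZ12 peaks (median of the others 140603 bp, shortest 83959 bp on chromosome 17) and 153084.5 bp between PCGF2 peaks (353865 bp, shortest 169990.5 bp on chromosome 19). The other autosomes spread widely in these gaps, and chromosome 11 lay 1.91, 1.73 and 1.86 SDs of the others below their medians. Within chromosome 11 the gap after a peak was 24113 bp for RING1B peaks with SUZ12 and PCGF2, 19777.5 bp for those with SUZ12 only and 21125 bp for those with neither, so these medians lay close together. On the other autosomes pooled, the gap after peaks with both was 67899 bp and after peaks with neither 33638 bp. Gaps by class were not compared with single autosomes, so whether others have such close medians was not tested. The densest stretch of 1 Mb (chr11:69000001-70000000) held 67 RING1B peaks, 20 of them with SUZ12, and 70 genes. It ranked 2 among the densest stretches of the autosomes, after 68 peaks on chromosome 10 (median of the others 40.5). The longest stretch with no RING1B peak was 3.79 Mb (chr11:12465936-16256978), which holds the starts of 3 genes, 1700046C09Rik, 4930554G24Rik and Pom121l12. Such a stretch was usual in length, since the longest on the other autosomes ran from 2.38 Mb to 9.86 Mb with a median of 4.07 Mb.

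RING1B peaks without SUZ12 had a median width of 1371 bp on chromosome 11. These are the values that chose the chromosome. On the other autosomes the median was 1063 bp (SD 41.5), from 964 bp on chromosome 12 to 1116.5 bp on chromosome 19. The shift ran through most of the distribution. The percentiles at 10, 25, 75, 90 and 95 were 558, 860.0, 2068, 3022 and 3827 bp, each above that of all other autosomes, whose medians were 462, 676.5, 1602, 2226 and 2778 bp. Of 49 percentiles read from 2 to 98, chromosome 11 was the widest at 47 and was not at the percentiles 2 and 4. Peaks of at least 2 kb were 27.3% of those without SUZ12 (median of the others 14.03%, highest 17.5%), and peaks of at least 4 kb were 3.96% (1.23%, highest 1.89%).

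**Figure D2:**
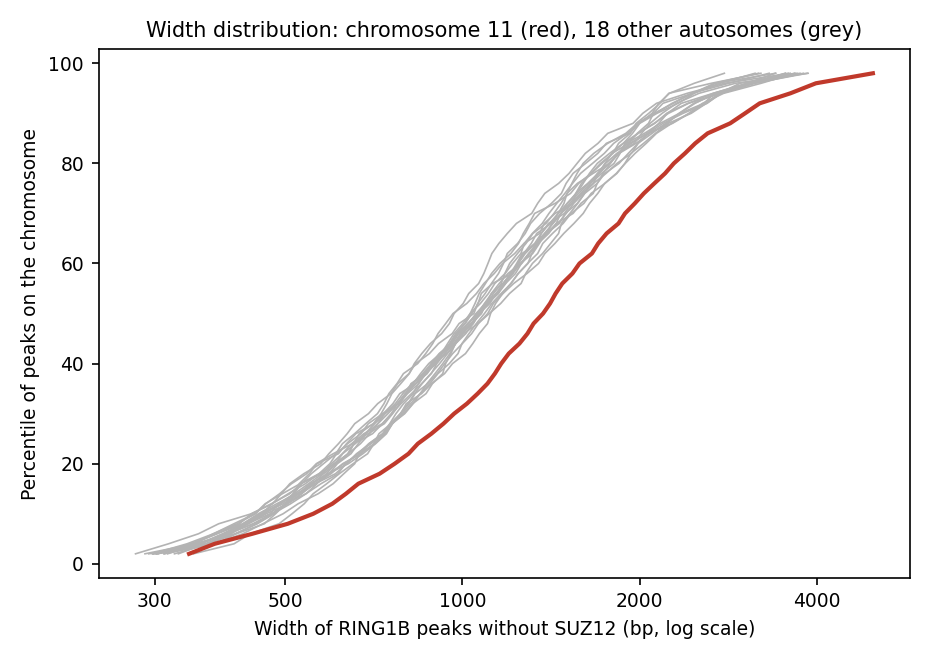
Percentile (vertical axis) against width in bp on a log scale (horizontal axis) for RING1B peaks without SUZ12, 1 curve per autosome, chromosome 11 in red and the other 18 in grey. Above the lowest percentiles the red curve lies to the right of every grey one, with a median of 1371 bp against 964 to 1116.5 bp.

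Both promoter and other peaks of this class were wide on chromosome 11. The median was 1412 bp for the 598 that overlapped a promoter (median of the others 1156 bp, highest 1299 bp), 1198 bp for the 220 in gene bodies (879 bp, highest 1078 bp) and 1401 bp for the 292 between genes (962 bp, highest 1043 bp). Of this class, 53.9% overlapped promoters (95% Wilson interval 50.9% to 56.8%, rank 13, median of the others 54.9%), 19.8% lay in gene bodies (17.6% to 22.3%, rank 2, median 16.3%) and 26.3% between genes (23.8% to 29.0%, rank 14, median 27.2%). In stretches of 10 Mb with at least 20 such peaks, the 12 medians of chromosome 11 ran from 1068.5 bp to 1855 bp. The 167 on the other autosomes ran from 668 bp to 1498.5 bp, with a median of 1061 bp, so the ranges overlapped. These medians come from the widths that chose the chromosome. On chromosome 11 the highest lay towards the far end, at 1651 bp from 110 to 120 Mb and 1855 bp beyond. Without all peaks beyond 100 Mb the median of the chromosome was still 1321 bp, an alternative chosen after seeing the data. At the promoter density of chromosome 11, a line through the other 18 autosomes gave 1104 bp, and chromosome 11 lay 267 bp above it, where the farthest other lay 68.1 bp from the line (Pearson r = 0.496 and Spearman rho = 0.521 over the 18). Chromosome 7 had a median of 1068 bp.

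RING1B peaks with SUZ12 were also wide, and the SUZ12 and PCGF2 peaks themselves were not. The median width of RING1B peaks with SUZ12 was 3343 bp, first of the autosomes (median of the others 2804 bp, SD 170, highest 3104 bp on chromosome 1). It was 2282 bp for those with SUZ12 only (1836 bp, highest 2063 bp on chromosome 19). For those with SUZ12 and PCGF2 it was 4840 bp, 6 bp above the 4834 bp of chromosome 2 and 1.36 SDs above the median of the others, 4478 bp. SUZ12 peaks of chromosome 11 had a median width of 2768 bp, which ranked 7 (median of the others 2624 bp, SD 229, highest 3171 bp on chromosome 1). PCGF2 peaks had a median width of 2446 bp, which ranked 18 (2639 bp, SD 160, lowest 2239 bp on chromosome 4). Chromosome 11 thus ranked first in each RING1B class and lay 0.627 SDs above the median of the others for SUZ12 and 1.21 SDs below it for PCGF2. Both of these directions turned under other settings, as SUZ12 width was 5 bp below the median with peaks of at least 1 kb only (rank 10) and PCGF2 width 76.7 bp above it with means (rank 9). RING1B peaks with SUZ12 ranked 2 with peaks of at least 1 kb only.

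**Figure D3:**
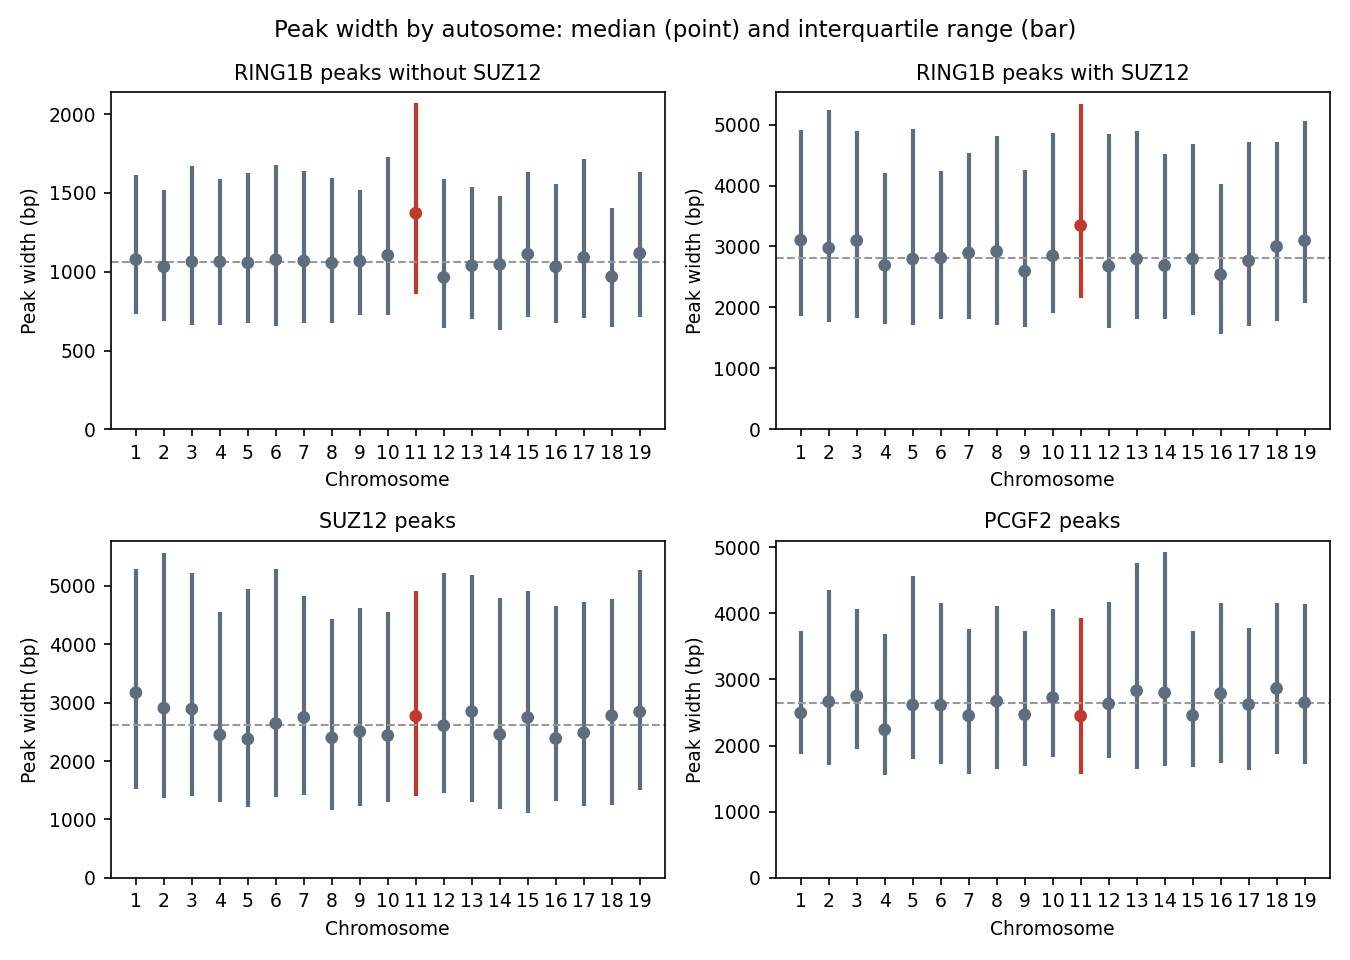
Median peak width in bp (points) and interquartile range (bars) on each autosome for RING1B peaks without SUZ12, RING1B peaks with SUZ12, SUZ12 peaks and PCGF2 peaks, with chromosome 11 in red and the median of the other 18 as a dashed line. Chromosome 11 is above all others in the upper panels (1371 and 3343 bp) and within the others in the lower panels (2768 and 2446 bp).

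The widths of both factors were compared where a single RING1B peak met a single SUZ12 peak, at 548 sites on chromosome 11. The RING1B peak was wider by a median of 160.0 bp there, and was the wider peak at 56.2% of sites. On the other autosomes the median difference was -45 bp, that is, the SUZ12 peak was wider, with a range from -230.0 bp on chromosome 6 to 80.0 bp on chromosome 5. The share of sites with the wider RING1B peak ran from 39.8% to 53.5% on them. RING1B widths entered the choice of the chromosome at other peaks of the same list, so this difference was not independent of it.

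By an overlap of 1 bp, the overlap classes of chromosome 11 lay within the range of the other autosomes, towards fewer RING1B peaks with SUZ12. Under rules that depend on peak width, some shares were the lowest of the autosomes. With peaks of at least 1 kb only, SUZ12 was present at 38.4% of RING1B peaks, which ranked 19 (median of the others 45.7%). With 50% of each peak shared, the share with both SUZ12 and PCGF2 was 9.51% and ranked 19 (median 13.4%). The chromosome was chosen on RING1B width, so these ranks are not independent of that choice. Of the 1703 RING1B peaks, 593 overlapped SUZ12 by at least 1 bp, a share of 34.8% (95% Wilson interval 32.6% to 37.1%, for counting error only). This ranked 17 of 19, against a median of 38.2% and a range from 32.3% on chromosome 17 to 43.7% on chromosome 18. Both SUZ12 and PCGF2 were present at 291 RING1B peaks, or 17.1% (15.4% to 18.9%, rank 15, median 18.6%), SUZ12 alone at 302, PCGF2 alone at 3 and neither at 1107, or 65.0% (62.7% to 67.2%). In numbers for its length, by contrast, chromosome 11 led in RING1B, SUZ12 and PCGF2 alike. Of the 628 SUZ12 peaks, 607 overlapped RING1B, or 96.7% (94.9% to 97.8%, rank 8), and 297 overlapped PCGF2, or 47.3% (43.4% to 51.2%, rank 9, median 46.8%). Of the 309 PCGF2 peaks, 306 overlapped SUZ12, or 99.03%, and 307 overlapped RING1B. RING1B peaks with SUZ12 and PCGF2 made up 42.8% of the sequence under chromosome 11 RING1B peaks and 49.0% of that on the other autosomes pooled. Peaks with neither made up 39.4% and 33.3%. Shares of sequence depend on RING1B width, so they too are not independent of the choice of the chromosome. RING1B peaks with SUZ12 overlapped a promoter in 75.9% of cases (72.3% to 79.2%, rank 17, median 79.6%).

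**Figure D4:**
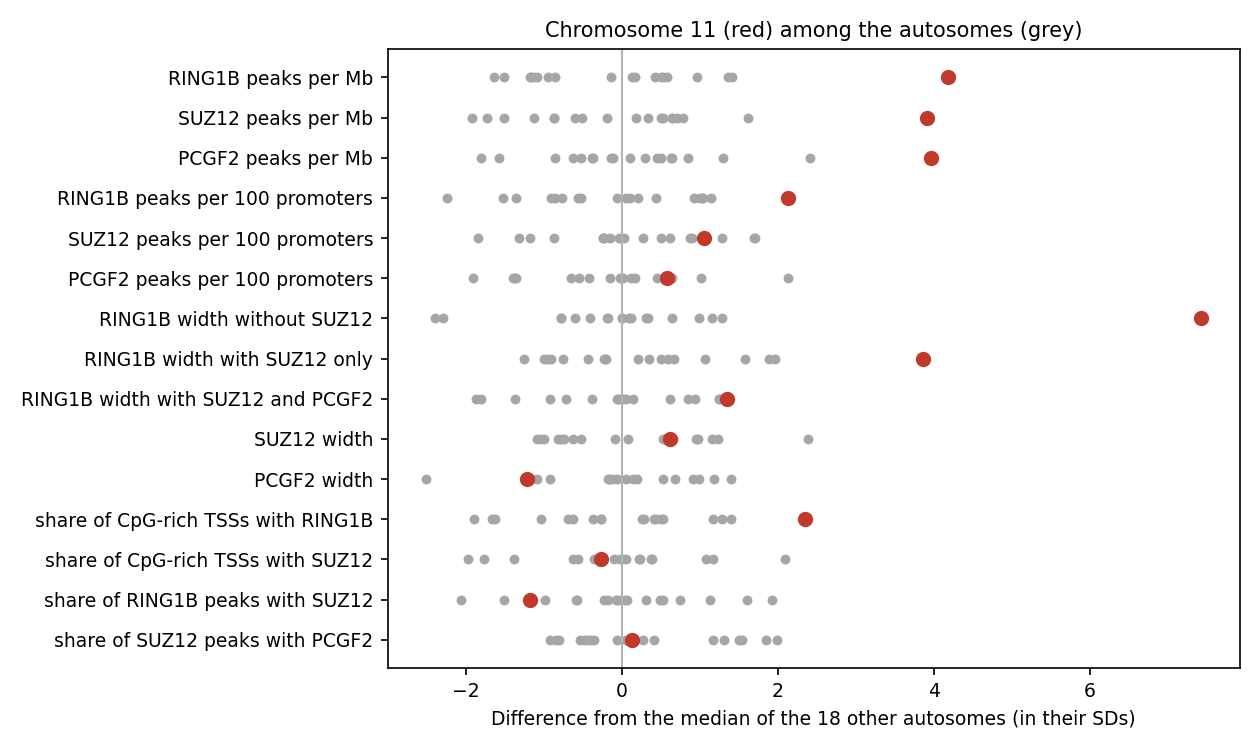
Each of 15 measures (vertical axis) as the difference from the median of the 18 autosomes other than chromosome 11, in units of their SD (horizontal axis), with chromosome 11 in red and the others in grey. Chromosome 11 stands beyond all others for peaks per Mb, RING1B peaks per 100 promoters, RING1B widths and the share of CpG-rich TSSs with RING1B, and among the others for SUZ12 and PCGF2 widths and for both overlap shares.

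Over whole RING1B peaks, CpG observed/expected was lower on chromosome 11 than on the other autosomes. This value can change with peak width, so it is not independent of the choice of the chromosome. CpG observed/expected is the number of CpGs relative to that given by the C and G content, and its median over RING1B peaks without SUZ12 was 0.451 on chromosome 11, the lowest of the autosomes (median of the others 0.521, SD 0.0300, lowest 0.493 on chromosome 4). The value was 0.669 for those at promoters (rank 18) and 0.310 for those outside promoters (rank 19, lowest other 0.323). These peaks nevertheless held more CpGs each, a median of 50 (median of the others 42, highest 48), and were longer. Whether the length accounts for the number was not tested. Repeat-masked bases made up a median of 10.6% of each (8.60%, highest 9.87%) and their GC content was 54.2%, rank 15. RING1B peaks with SUZ12 also had the lowest CpG observed/expected, 0.479 (median of the others 0.515, lowest 0.496). In 1 kb centred on each midpoint, which includes flanking sequence where a peak is narrower, the value without SUZ12 was 0.455, again the lowest (median of the others 0.510).

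To place genes in these classes, a gene was counted if a peak overlapped the window of any of its TSSs. Peaks of different lists at a gene therefore need not overlap each other. Of the 1937 chromosome 11 genes with a curated transcript, RING1B was at 1255, or 64.8% (rank 1, median of the others 54.7%, highest 60.1% on chromosome 15). SUZ12 was at 538, or 27.8% (rank 5, median 25.9%), PCGF2 at 289, or 14.9% (rank 7), and all 3 at 287. Over all autosomes RING1B was at 54.8% of 24963 genes, SUZ12 at 25.5% and PCGF2 at 13.8%, which are the shares to read the gene groups against. The groups were written with earlier results of these data known.

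Homeobox genes encode transcription factors that pattern the embryo. The widest RING1B peaks of chromosome 11 lay at the Hoxb genes and Hoxb13, and the next at Cbx8 and Neurod2, outside this group. All 18 homeobox genes on the list had RING1B and SUZ12 and 17 had PCGF2, the exception being Meox1, a factor of somite development. Its widest RING1B peak, of 1438 bp, did not overlap its widest SUZ12 peak, of 1498 bp. The Hoxb genes, which specify position along the body axis, shared a single peak. It was 128589 bp wide (chr11:96248166-96376754) and covered the starts of Hoxb1 to Hoxb9. It met a SUZ12 peak of 128663 bp and 5 PCGF2 peaks, the widest of 91111 bp. These 9 genes are thus 1 region and not 9 independent ones. Hoxb13, which acts in the posterior body, had a peak of its own of 41432 bp (SUZ12 43204 bp, PCGF2 18009 bp). Meis1, a partner of Hox proteins, had RING1B over 23658 bp and Otx1, a factor of the forebrain, over 22828 bp.

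Among 18 other transcription factor genes of development, 17 had RING1B, 15 SUZ12 and 14 PCGF2. At Rara, counted for RING1B and SUZ12, the widest peaks of these lists (5707 bp and 917 bp) did not overlap. Neurod2, a neuronal differentiation factor, had the widest RING1B peak of this group (27876 bp), and Tbx2 and Tbx4, T-box factors of the limb and heart, had peaks of 20783 bp and 18910 bp. Foxn1, needed in the thymus epithelium, had no peak. Irf1, an interferon response factor, had a RING1B peak of 4632 bp alone. Etv4, an ETS factor, combined RING1B (5198 bp) with PCGF2 (2367 bp) without a SUZ12 peak. Of 18 genes of signalling ligands and receptors, 15 had RING1B, 14 SUZ12 and 13 PCGF2. The axon guidance ligand Ntn1 had the widest RING1B peak (21954 bp), and the Wnt ligand genes Wnt3, Wnt3a, Wnt9a and Wnt9b, which lie in neighbouring pairs, had peaks of 7904, 7399, 6958 and 5965 bp. The cytokine genes Csf2, Il3 and Il4 had no peak, and Gdf9, a growth factor of the oocyte, had RING1B alone.

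**Figure D5:**
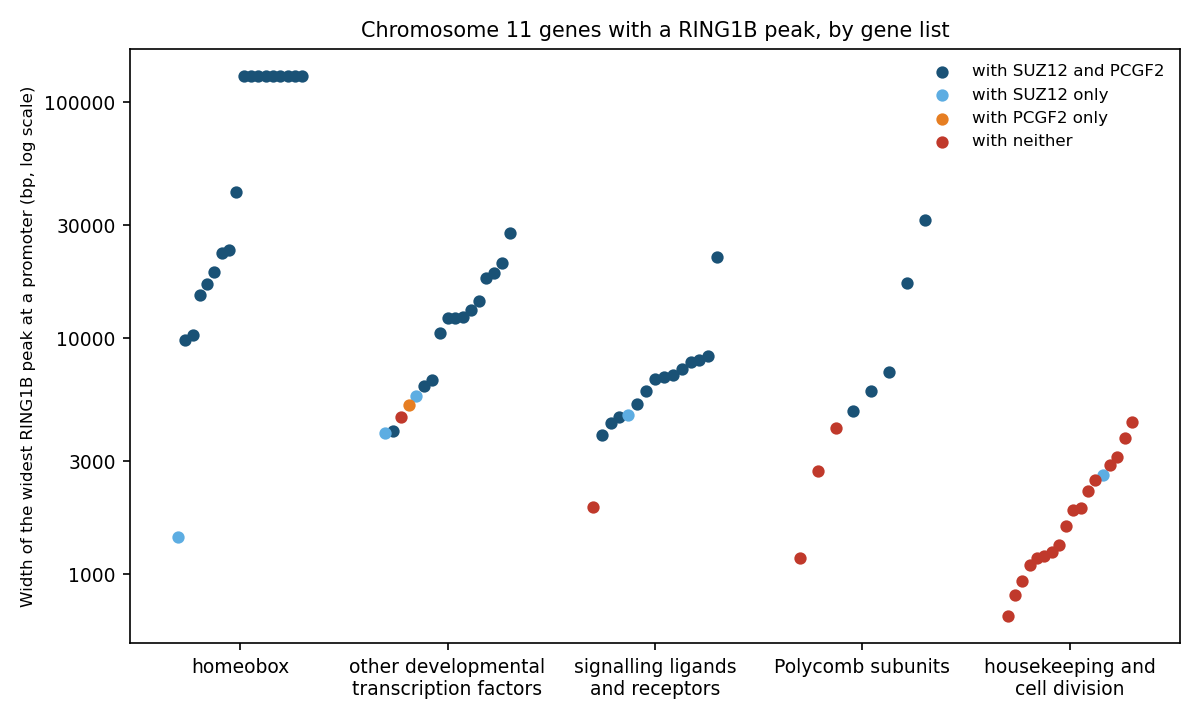
Width in bp (log scale) of the widest RING1B peak at a promoter of each chromosome 11 gene that had one, in 5 gene lists, coloured by the presence of SUZ12 and PCGF2 at the gene. Each point is a gene and the order within a list is by width. The 9 points at 128589 bp are Hoxb genes that share a peak, and 17 of the 18 housekeeping genes have neither SUZ12 nor PCGF2.

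Genes on the Polycomb subunit list differed in whether SUZ12 and PCGF2 were present. All 8 had RING1B, and 5 also had SUZ12 and PCGF2. Among those 5 were Cbx2 and Cbx8, whose products read histone methylation in canonical PRC1, with RING1B peaks of 4916 and 31577 bp, Epop, a PRC2 cofactor (7196 bp), and Pcgf2 itself (5956 bp). The remaining 3 had RING1B alone, namely Suz12 (2742 bp), Ezh1, a catalytic subunit of PRC2 (1164 bp), and Cbx1 (4168 bp), a heterochromatin protein that was counted on this list but is not a Polycomb subunit. The list of 18 housekeeping and cell division genes differed from the homeobox list in SUZ12 and PCGF2. All 18 had RING1B, 1 had SUZ12 and none had PCGF2 (0 of 18). The exception was Grb2, an adaptor of growth factor signalling, with a SUZ12 peak of 1423 bp. Their RING1B peaks ran from 663 bp at Rpl27 to 4403 bp, with Polr2a, the largest subunit of RNA polymerase II, at 3769 bp and the ribosomal protein gene Rpl38 at 3142 bp.

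Large families of tissue-specific genes on chromosome 11 had almost no peaks. Of 25 type I keratin genes, 1 had a RING1B peak, Krt19, a keratin of simple epithelia, with 1464 bp and a SUZ12 peak of 791 bp. None of 85 olfactory receptor genes, 11 CC chemokine genes, 11 Cd300 genes of myeloid receptors or 6 skeletal myosin heavy chain genes had a peak of any list (0 in each). Members of these families lie side by side, so their counts are not independent.

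The widest RING1B peak without SUZ12 was 10449 bp long (chr11:97566983-97577431) and spanned a start of Srcin1, an adaptor that restrains SRC kinase. Its nearest SUZ12 peak lay 14.9 kb away. The second, of 9896 bp (chr11:99139385-99149280), lay over an exon of Ccr7, a chemokine receptor of lymphocytes, 5.797 kb from its start and 80.7 kb from SUZ12. Peaks of 8300 bp and 7348 bp followed, both between genes, the nearest starts being Nxph3 at 23.9 kb and Gpr142 at 13.8 kb, and with a CpG observed/expected of 0.182 and 0.186. The fifth, of 7236 bp, spanned the start of Mllt6, and the sixth, of 6651 bp, that of Actg1, the gene of cytoplasmic gamma actin. The widest RING1B peak with SUZ12 and without PCGF2 was 14848 bp long (chr11:120303196-120318043) between genes, and its SUZ12 peak covered 3704 bp. At Socs3, an inhibitor of cytokine signalling, a RING1B peak of 9939 bp met a SUZ12 peak of 1611 bp, and at Ltc4s, an enzyme of leukotriene synthesis, a RING1B peak of 9142 bp met 2 SUZ12 peaks, the wider of 1851 bp. RING1B was the wider factor at all 3, but these were picked for their RING1B width.

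Few PCGF2 peaks lacked an overlap of 1 bp with SUZ12, and few SUZ12 peaks lacked one with RING1B. PCGF2 met RING1B without SUZ12 at 3 peaks, at Mllt6 (PCGF2 2423 bp), at Etv4 and in an intron of Dock2 (RING1B 2167 bp, PCGF2 1808 bp, 137 kb from SUZ12). SUZ12 lacked RING1B at 21 peaks, with a median width of 1198 bp (319 to 3060 bp), and 10 of them lay within 5 kb of a RING1B peak. The widest was at Pik3r5, a regulatory subunit of a phosphoinositide kinase (3060 bp), and another lay 43.2 kb from Hoxb1 (1921 bp), 0.758 kb from RING1B. PCGF2 lacked RING1B at 2 peaks, of 1666 bp in an intron of Dock2 and of 1099 bp at 16.7 kb from Bcl11a, and both overlapped SUZ12.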

How the data were processed

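Paired-end cChIP-seq reads had been aligned by the authors to mm10 plus hg19 (the spike-in) with Bowtie 2. Multiply mapped reads and, with Sambamba, duplicates were discarded. Broad peaks came from MACS2, with Input as control, and blacklisted regions were left out. Peaks for RING1B and SUZ12 were called on merged replicates and kept when found in both lines. A RING1B peak was then dropped unless tamoxifen lowered its PRC1CKO signal significantly, by the authors' cutoffs for adjusted p-value and fold change. Peaks for PCGF2 were kept when found in all replicates of PRC1CPM. As the rules were not the same for each list, they can alter how many peaks a list has and how wide they are. The deposited values are starts and ends of peaks in bp, with no signal, so read depth and its distribution over chromosomes in either line were not measured here. The submitters' processing notes also name deepTools and dm6.

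From these positions, peaks of 19 autosomes were counted, measured and overlapped (at least 1 bp) against GRCm38.p6 and curated RefSeq transcripts. Sequences were matched by symbol for 3 of 3 genes. Gene bodies were spans of curated transcripts outside promoters. The members and gene lists were chosen with earlier results of these data known. Named peaks were the 6 widest RING1B peaks without SUZ12, the 6 widest with both, the 3 widest with SUZ12 only, those with PCGF2 only, the 3 widest SUZ12 and all PCGF2 peaks without RING1B, and the longest gap. One of the items these rules select is not reported here. Overlap calls were tested on simulated data, where 0 of 4251 differed from a brute-force search under 3 rules. No column of per-sample values was left unused (0). Intervals are Wilson intervals at 95% and take peaks as independent. Alternatives changed the overlap, minimum width, merging, promoter definition, length, spacing, average and window (87 planned, 4 added after seeing the data). Computation used pandas 2.3.3, NumPy 2.4.6 and SciPy 1.17.1 in Python 3.11.15, with Wilson intervals from statsmodels 0.14.6 and plots from matplotlib 3.10.9.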

Additional observations from a re-analysis of the deposited data

How the results depend on the processing

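Values here are chromosome 11 minus the median of the other 18 autosomes, for 21 results under 91 alternatives. The sign was kept in 86, and 71 of these moved by less than 1 SD of the other autosomes. Where chromosome 11 ranked first or last, in 12 results, it kept that place in 49 of 51 alternatives. With peaks of at least 1 kb only, the difference became -37559 bp for RING1B spacing, 184 bp for RING1B width (183 bp without SUZ12 and 301 bp with it, where chromosome 11 then ranked 2), 179.8 bp for the width above the line on promoters, -7.30 points for the share of RING1B peaks with SUZ12, -5.38 points with both and -6.42 points for promoters among peaks with SUZ12. It turned to -5 bp for SUZ12 width and -3.12 points for the share of SUZ12 peaks with PCGF2, which also turned to -4.10 points with 50% of each peak shared and -2.17 points by midpoint. With means, RING1B width without SUZ12 differed by 378 bp, its height above the line by 337 bp, and PCGF2 width turned to 76.7 bp. With the nearer neighbour, spacing differed by -8720.25 bp for RING1B, where chromosome 11 ranked 18, and by -79919 bp for PCGF2. RING1B width without SUZ12 differed by 258 bp without chromosome 11 peaks beyond 100 Mb, by 255.5 bp at promoters and by 373 bp outside them, alternatives added after seeing the data. The cause of these changes was not tested. No paired analysis was possible because each list is a single set of positions with no replicates, and for the same reason no replicate could be left out. What depth limits could not be told, since the lists hold no read counts.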
